A study of Homo sapiens with 4 samples.

Results

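Zinc handling was examined in RNA-seq libraries of U937 cells through 7 genes. These were 5 metallothioneins (MT2A, MT1X, MT1E, MT1F and MT1G), the transcription factor MTF1 and the zinc exporter SLC30A1. They made up 7 of the 17656 genes in the deposited table. The members were chosen by name with their difference between the study groups already known, so that difference, with any call made on it, is given as a description, and it supports nothing by itself. U937 is a human myelomonocytic line kept in culture, which the study lists among its acute myeloid leukemia (AML) cell lines. Total RNA of 4 libraries was sequenced, 2 of a group named NC, labelled untreated, and 2 of a group named sh-ZNF217, in which ZNF217, a zinc finger partner of transcriptional corepressors, was knocked down according to the labels. All libraries come from the same line, and nothing in the labels tells whether replicates were grown as separate cultures, so errors and p-values measure the spread between these samples only, which may be technical. The study made its hairpin lines with a lentiviral vector carrying puromycin resistance. If NC cells received no vector, as their label may mean, effects of vector and selection cannot be told apart from those of ZNF217. The study's results text speaks of a CRISPR/Cas9 knockout for the U937 RNA-seq, whereas its methods and the labels speak of a knockdown.

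Metallothioneins are small, cysteine-rich proteins that bind zinc, copper and cadmium and buffer free zinc in the cell. MTF1 senses zinc through its own zinc fingers, enters the nucleus and binds metal response elements (MREs) before metallothionein genes and SLC30A1. SLC30A1 then carries zinc out across the plasma membrane, while importers of the SLC39 family bring it in. In monocytes and macrophages these genes are known to respond to metals, glucocorticoids, oxidants and inflammatory signals.

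The values were TPM, a transcript level corrected for length and scaled to a common library total, which sum to between 998932 and 999282 in each library and hold no record of depth. ZNF217 mRNA itself was at 36.1 and 36.7 TPM in NC and at 35.8 and 35.0 TPM in those labelled sh-ZNF217 (limma log2 fold change -0.04, adjusted p = 0.74), so the label was not borne out by the target transcript, and every direction below rests on the label alone. In AML cell lines the study reported less ZNF217 mRNA and protein with its hairpins, by qRT-PCR and Western blot. No protein value comes with the libraries used here. ZNF217 overlaps exons of neighbouring genes, and whether strand was used in counting is not stated. Of 12 myelomonocytic markers, 10 were at 1 TPM or more in every library, while MPO stayed at or below 0.513 TPM and CD14 lay between 0.760 and 2.79 TPM. Of the markers of T and NK cells, CD2 and NKG7 were measured, and their sum was 86.3 and 69.1 TPM in NC against 101 and 110 TPM. CD3D, CD3E, CD3G and GNLY had no row analysed here. B-cell markers summed to between 4.45 and 10.7 TPM, and 0 of 15 erythroid, megakaryocyte, epithelial and fibroblast markers had a row. The 12 myelomonocytic markers summed to 4268 and 4302 TPM in NC against 6775 and 6685 TPM, with 6 called higher and 1 lower. LYZ, lysozyme, made up most of that sum (3270 and 3256 TPM against 5511 and 5328 TPM), and the gene called lower was ELANE, neutrophil elastase (42.4 and 36.8 TPM against 22.1 and 22.5 TPM). Mitochondrially encoded genes held 9.98% and 10.8% of TPM in NC against 12.5% and 12.7%. The part of these values in the results below was not tested.

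The 5 metallothionein genes lie together on chromosome 16, within 75.6 kb (chr16:56608584-56684196, hg38, GENCODE annotation). All are protein coding. MT2A (ENSG00000125148), MT1E (ENSG00000169715), MT1F (ENSG00000198417) and MT1X (ENSG00000187193) are on the plus strand, and MT1G (ENSG00000125144) is on the minus strand. MTF1 (ENSG00000188786) lies on chromosome 1 (37809574 to 37859592, minus strand), as does SLC30A1 (ENSG00000170385; 211571568 to 211579161, minus strand). The DNA just before the gene start is shown for MT2A, MT1X and SLC30A1, since MTF1 acts through short elements there. Each run is the 250 bases before the start, 5′ to 3′ on the gene strand, from RefSeq promoter sequences of GRCh38.p14. Capitals mark matches to the MRE core, searched as TGCACNC and TGCGCNC on both strands. The windows are chr16:56608334-56608583 (plus strand) for MT2A, chr16:56682220-56682469 (plus strand) for MT1X and chr1:211579162-211579411 (minus strand) for SLC30A1.
MT2A: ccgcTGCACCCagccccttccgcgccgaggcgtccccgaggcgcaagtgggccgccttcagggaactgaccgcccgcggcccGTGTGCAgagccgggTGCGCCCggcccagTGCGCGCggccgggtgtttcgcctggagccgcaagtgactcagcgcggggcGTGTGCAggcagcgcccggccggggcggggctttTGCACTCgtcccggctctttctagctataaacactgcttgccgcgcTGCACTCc
MT1X: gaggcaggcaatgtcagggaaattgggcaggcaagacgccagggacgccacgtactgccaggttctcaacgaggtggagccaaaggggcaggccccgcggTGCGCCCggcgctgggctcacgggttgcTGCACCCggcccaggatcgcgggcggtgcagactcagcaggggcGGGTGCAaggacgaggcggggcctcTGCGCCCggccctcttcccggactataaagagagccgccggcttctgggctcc
SLC30A1: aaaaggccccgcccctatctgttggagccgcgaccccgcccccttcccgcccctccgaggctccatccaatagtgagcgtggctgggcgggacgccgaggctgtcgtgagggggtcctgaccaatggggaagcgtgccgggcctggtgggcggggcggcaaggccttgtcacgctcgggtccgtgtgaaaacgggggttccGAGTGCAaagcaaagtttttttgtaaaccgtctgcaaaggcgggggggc

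MT2A held 7 matches to the MRE core, 5 of them within the last 153 bases, and MT1X held 4. Only 0.0313% of 35116 promoter windows of this length held 7 or more matches, and 0.37% held 4 or more. SLC30A1 held 1 match, on the other strand at 49 to 43 bases before the start, and 24.8% of windows held at least 1. MTF1 held 0 matches in its own window. MT2A and MT1X shared a TATA match (TATAAA, gene strand), whose first base lay 29 and 30 bases before their starts, and 6.80% of windows held such a match. MTF1 and SLC30A1 had none. The GC box letters (GGGCGG, both strands) matched 2 times in MT2A, 2 in MT1X, 1 in MTF1 and 6 in SLC30A1, where 2 of the matches overlapped by a base. At least 2 were found in 24.3% of windows, and at least 6 in 2.22%. The promoter sequences of MT1E, MT1F and MT1G were not analysed here. A match is a stretch of letters and not a measured binding site.

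**Figure D1:**
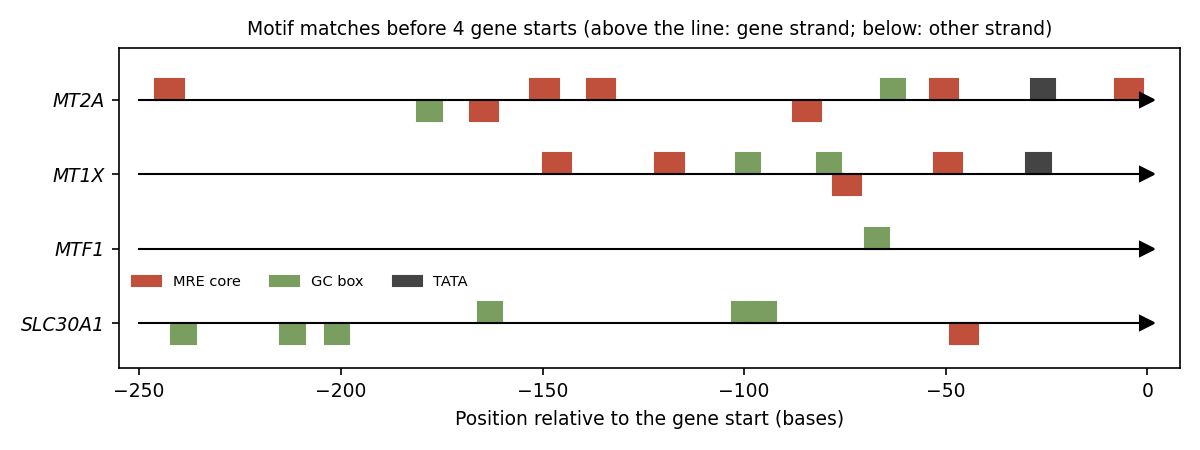
Positions of motif matches in the 250 bases before 4 gene starts, in bases relative to the start (arrowhead), with boxes above the line for the gene strand and below it for the other strand. MT2A carries 7 MRE core matches and MT1X 4, SLC30A1 carries 1, and MTF1 carries 0.

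All 5 metallothioneins were lower in both libraries labelled sh-ZNF217 than in either NC library, while MTF1 and SLC30A1 were higher in both. In this bulk measurement a lower level per cell and fewer cells that express a gene cannot be told apart. Groups were likewise apart, with the labelled libraries lower, in 28.6% of the 14582 tested genes, and with them higher in 33.5%.

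MT2A, the most abundant metallothionein of the NC libraries, was at 196 and 154 TPM in NC and at 72.2 and 90.7 TPM in those labelled sh-ZNF217. The lowest NC value was thus well above the highest of the other group. Its mean went from 175 ± 29.6 to 81.4 ± 13.03 TPM (SD, n = 2 for either), a change of -53.5%, and the log2 fold change of TPM + 1 was -1.10 (SE 0.15).

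MT1E stood at 65.002 and 59.2 TPM in NC and at 25.9 and 36.6 TPM in the other group. Both NC values lay above both others, the means being 62.1 ± 4.11 and 31.3 ± 7.52 TPM (SD, n = 2 per group) and the log2 fold change -0.99 (SE 0.16). MT1G, encoded on the opposite strand to the rest of the cluster, was at 99.7 and 75.02 TPM in NC against 48.5 and 60.7 TPM. Its groups did not overlap, the means were 87.4 ± 17.5 and 54.6 ± 8.63 TPM (SD, n = 2 per group), and the log2 fold change was -0.66 (SE 0.16).

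MT1X replicates differed by no more than 0.14 on the log2 scale, and this gene had the smallest difference of the 5. It was at 144 and 131 TPM in NC and at 102 and 96.2 TPM in those labelled sh-ZNF217, the group means being 138 ± 9.50 and 99.3 ± 4.44 TPM (SD, n = 2 per group) and the log2 fold change -0.47 (SE 0.07). MT1F was the least abundant, at 33.3 and 21.2 TPM in NC and at 20.8 and 16.004 TPM in the other group. Here the groups nearly touched, and the log2 fold change of -0.52 had an SE of 0.23. Leaving out NC replicate 1 gave -0.21, NC replicate 2 gave -0.83 and sh-ZNF217 replicate 2 gave -0.34.

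The regulator and the exporter went the other way by a smaller amount. MTF1 was at 13.8 and 14.1 TPM in NC and at 17.5 and 17.0 TPM in those labelled sh-ZNF217, 23.6% more on the mean, with a log2 fold change of 0.29 (SE 0.10). SLC30A1 was at 28.6 and 28.1 TPM in NC and at 34.2 and 35.9 TPM, 23.7% more on the mean, with a log2 fold change of 0.30 (SE 0.08). The replicates of both genes lay close together. With a correction of each library for transcript length and GC content the differences were 0.17 for MTF1 and 0.17 for SLC30A1. Their longest transcripts have 7937 and 5893 bases, against 628 to 1727 for the metallothioneins.

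**Figure D2:**
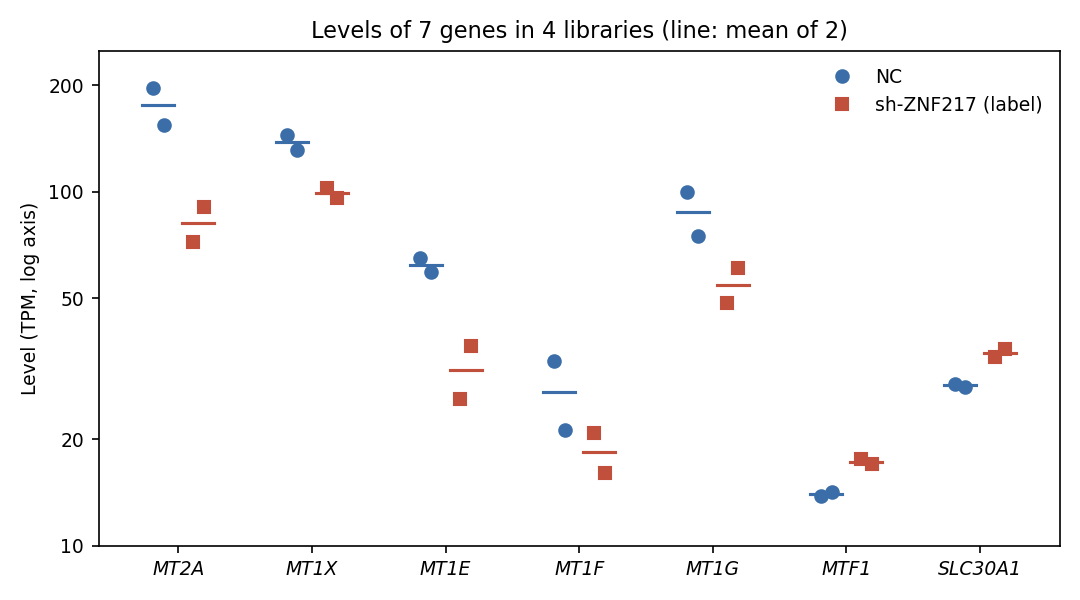
TPM of the 7 genes (log axis), each library being a point and each short line the mean of its group of 2. The metallothioneins lie lower in the libraries labelled sh-ZNF217 (MT2A from a mean of 175 to 81.4 TPM), whereas MTF1 and SLC30A1 lie slightly higher (SLC30A1 from 28.3 to 35.1 TPM).

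All 7 members passed the filter on low values. Calls required both a limma adjusted p under 0.05 and a log2 fold change beyond 0.5 in either direction. As a description, since the members were chosen on this contrast, 3 of the 7 (MT2A, MT1E and MT1G) were called lower and 0 were called higher. Over all tested genes 2.46% were called lower, 6.26% higher and 8.72% in either direction, and nothing is read from the members' count. The 1272 calls over all genes became 439 when sh-ZNF217 replicate 1 was left out and 430 when replicate 2 of that group was, and the 359 lower calls became 145 and 129 in these and 239 without NC replicate 1. MT2A was called in 11 of 13 alternative analyses, MT1E in 10 and MT1G in 4. The exceptions for MT2A were the analysis without sh-ZNF217 replicate 1 and that without trend or robust moderation. MT1E was not called in the latter, nor without either NC replicate. MT1X and MT1F, not called here, were called without NC replicate 2 (-0.54 and -0.83). MTF1 and SLC30A1 were called in 0 of 13. No member changed sign in any alternative.

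**Figure D3:**
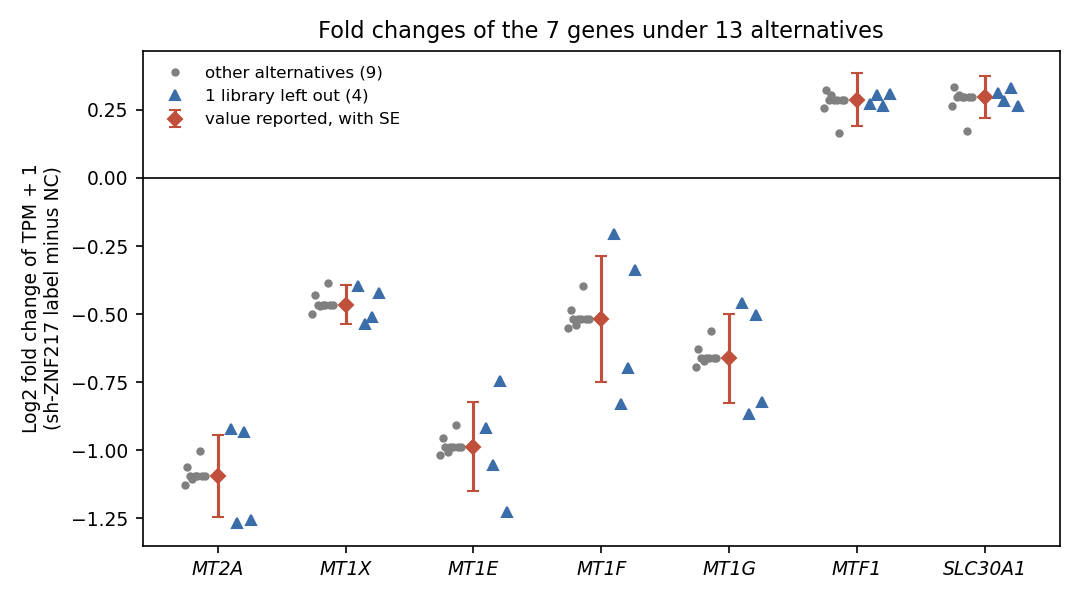
Log2 fold change on the TPM + 1 scale (labelled sh-ZNF217 against NC) of each member as reported (diamond with SE) and under 13 alternatives (triangles for 1 library left out, dots for the rest). The 5 metallothioneins stay below 0 and MTF1 and SLC30A1 above it, and MT1F has the widest range, from -0.83 to -0.21.

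TPM corrects for length, so levels of different members can be set side by side. In NC the order was MT2A, MT1X, MT1G, MT1E, SLC30A1, MT1F and MTF1, and neighbours in that order did not overlap except SLC30A1 and MT1F, since the MT1F values lay on both sides of those of SLC30A1. In the libraries labelled sh-ZNF217 MT1X came first and MT2A second, followed by MT1G. SLC30A1 and MT1E then overlapped, as did MT1F and MTF1. By mean TPM over the 4 libraries MT2A ranked 1292nd and MT1X 1415th of 17656 genes, and MTF1 ranked 7594th.

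The summed metallothionein level was 539 and 441 TPM in NC and 270 and 300 TPM in those labelled sh-ZNF217, a change of -41.8% in the mean. These sums are 0.0539% and 0.0441% of all TPM in NC, and 0.0270% and 0.0300% in the other group. The make-up of the sum differed as well. MT2A supplied 36.4% and 35.0% of it in NC but 26.8% and 30.2% in the libraries labelled sh-ZNF217. MT1X supplied 26.8% and 29.7% in NC and 38.0% and 32.05% in the others. The ratio of MT2A to MT1X was 1.36 and 1.18 in NC and 0.705 and 0.942 in the labelled libraries, so the order of the leading pair was exchanged in both. MT1G held between 17.0% and 20.2% in all libraries, without separating the groups. The shares of MT1E (9.61% to 13.4%) and MT1F (4.82% to 7.72%) also overlapped between groups.

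**Figure D4:**
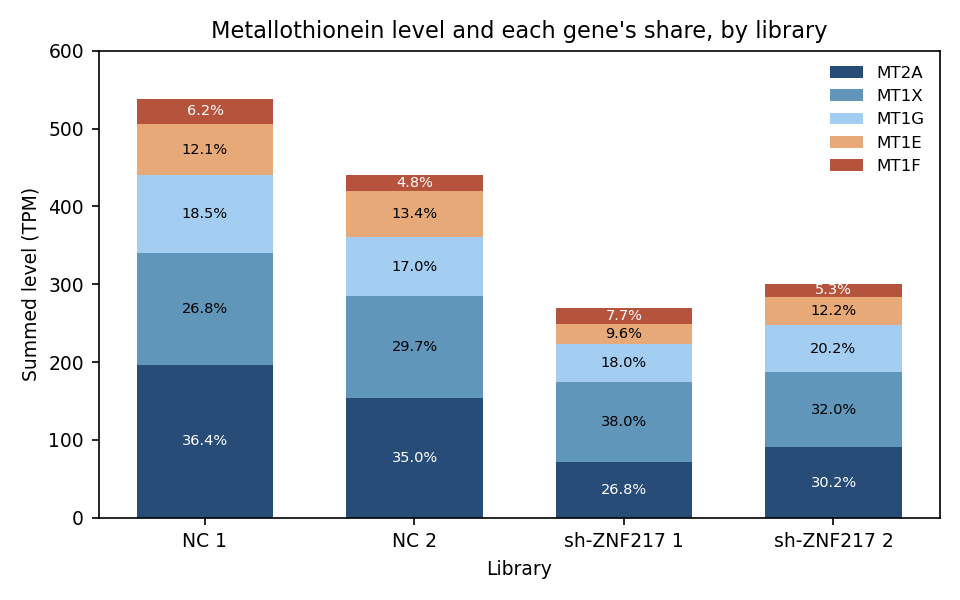
Summed level of 5 metallothioneins in TPM by library, with the share of each gene written in its segment. The sums are 539 and 441 TPM in NC against 270 and 300 TPM, and the MT2A segment shrinks from 36.4% and 35.0% to 26.8% and 30.2% of the sum.

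Differences between replicates were not used to choose the members. In NC all 5 metallothioneins were higher in replicate 1 than in replicate 2, by a log2 difference of TPM + 1 of 0.62 for MT1F, 0.41 for MT1G, 0.34 for MT2A, 0.14 for MT1X and 0.13 for MT1E. Over all tested genes the median absolute difference was 0.122, and 93.9% of genes differed less than MT1F, 86.9% less than MT1G and 82.9% less than MT2A. In the libraries labelled sh-ZNF217 the direction was not shared: MT2A (-0.32), MT1E (-0.48) and MT1G (-0.32) were lower in replicate 1, and MT1X (0.09) and MT1F (0.36) were higher. MTF1 and SLC30A1 differed between replicates by at most 0.07 in absolute value. For MT2A, MT1X, MT1E and MT1G the difference between groups exceeded each of their replicate differences, whereas for MT1F the NC replicates differed by more (0.62) than the group means did (0.52). The members were chosen with the group difference known, so nothing is read from this comparison.

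Metallothionein transcripts resemble each other, and reads that fit several of them can be divided wrongly. Of the stretches of 75 bases in the annotated transcripts, 0% of those of MT2A and MT1F occurred in another gene, as did 1.43% for MT1E and 5.72% for MT1G, the last most often with MT1X. For MT1X the share was 14.7%, and 13.3% were shared with ENSG00000259827, a long noncoding gene on the same strand that starts at the same base and overlaps its exons. Read length and the handling of shared reads are not stated, so MT1X is the metallothionein of the 5 with the most sequence that could be divided between genes. Of 20 annotated genes within the span of the cluster, the 5 members alone had rows analysed here. Of 16 other metallothioneins and pseudogenes looked for across the genome (MT1A, MT1M, MT3 and others), 0 had a row analysed here.

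Among 8136 protein-coding genes at a mean of 10 TPM or more, the profile over the 4 libraries most like that of MT2A was that of MT1E, at a Euclidean distance of 0.22 between centred log2(TPM + 1) values. POLR1G, a subunit of RNA polymerase I, came next (0.22), with 29.6 and 26.8 TPM in NC and 12.6 and 16.3 TPM in those labelled sh-ZNF217. TBXA2R, the thromboxane receptor (0.29), MRPS26, a mitochondrial ribosomal protein (0.30), and METTL26 (0.31) followed. POLR1G overlaps exons of ERCC1, so its value is uncertain. MT1G was 24th in that order, MT1X 300th and MT1F 531st. Nearest to MTF1 were STAC3, DCAF8 and TRIM44, at distances of 0.010 to 0.017, and nearest to SLC30A1 were GOSR2, LAMC1 and ZBTB40, at 0.0031 to 0.014. SLC30A1 was the 300th gene nearest to MTF1. These distances rest on 4 libraries and include the group difference, so they describe these libraries alone.

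Tested genes were also grouped by MRE core matches in the same window, which could be done for 6785 of them. The 43 genes with 4 or more matches, a limit taken from the count in MT1X, had a median log2 fold change of -0.09, with 6 called lower (13.95%) and 1 higher (2.33%). Of all 6785 genes 2.68% were called lower and 5.67% higher, with a median of 0.01. Genes with 2 matches had 2.63% called lower and 3.56% higher, with a median of -0.04. Those with 3 (126 genes) had 4.76% called lower and 4.76% higher, with a median of 0.04. With 0 and 1 matches, 2.57% and 2.56% were called lower and 6.36% and 4.71% higher. The share called lower was thus level up to 2 matches and larger in the small classes of 3 and of 4 or more. The share called higher and the median did not shift steadily with the number of matches. MT2A is 1 of the 6 genes called lower with 4 or more matches, and MT1X is 1 of the 43 genes of that class. The limit was set after the values were seen, no test was made, and the base composition of the windows was not taken into account.

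Other zinc transporters were tested in the same fit over all genes, in which 2.46% were called lower and 6.26% higher. Of 11 tested importers of the SLC39 family 1 fell and 10 did not pass, and the list had a median log2 fold change of 0.04, against 0.02 for all tested genes. The gene that fell was SLC39A4, a zinc importer of the plasma membrane. It was at 55.4 and 48.4 TPM in NC and at 29.4 and 37.2 TPM in those labelled sh-ZNF217 (log2 fold change -0.63, SE 0.13, limma adjusted p = 0.0317). Its groups did not overlap, but leaving out NC replicate 1 ended the call (adjusted p = 0.101), as did leaving out sh-ZNF217 replicate 1 (0.0971), a replicate block (0.0589) and dropping trend and robust moderation (0.0976). It overlaps exons of ENSG00000272115. SLC39A14, an importer of zinc and manganese named here after its value was seen, was at 70.0 and 67.7 TPM against 55.5 and 52.3 TPM and missed only the fold minimum (-0.35, limma adjusted p = 0.0258). The most abundant importers, SLC39A1 (-0.14, 95% interval -0.27 to -0.003) and SLC39A8 (0.09, interval -0.07 to 0.24), did not pass.

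Of 4 tested exporters of the SLC30 family other than SLC30A1, 0 were called by limma (median 0.14), and 2 were higher and 0 lower at an unadjusted p below 0.05. Many of all tested genes lay below that unadjusted level, since SLC39A1, at an unadjusted limma p of 0.0468, had an adjusted p of 0.139. Their share was not computed, so nothing is read from counts at the unadjusted level, here or in the lists below. SLC30A5, which loads zinc into the secretory pathway, was at 0.02 (95% interval -0.15 to 0.20) and SLC30A9 at 0.03 (interval -0.18 to 0.24) on the log2 scale. The 2 that were higher were SLC30A6 (0.25, interval 0.01 to 0.49) and SLC30A7 (0.33, interval 0.02 to 0.65), named after their values were seen. Of 10 zinc sensors, channels and chaperones 0 were called by limma (median -0.03), and 2 were lower and 0 higher at an unadjusted p below 0.05. ZNG1B, of a family of GTPases that deliver zinc to client enzymes, was at 79.2 and 72.3 TPM in NC against 62.9 and 60.8 TPM, short of the fold minimum (-0.29, limma adjusted p = 0.0490). Its near copy ZNG1A was at -0.21 (adjusted p = 0.0869), and the division of reads between the copies is uncertain.

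Metallothioneins also bind copper, and 16 genes listed under copper handling were tested, with 1 fall, 0 rises by limma (3 higher at an unadjusted p below 0.05) and a median of -0.09. The shares over all tested genes were 2.46% called lower and 6.26% higher. CUTA fell from 129 and 127 TPM to 85.3 and 87.9 TPM (log2 fold change -0.56, SE 0.06, limma adjusted p = 0.00561). It is named for a bacterial copper tolerance protein, and whether it handles copper in these cells was not examined. It stayed short of the fold minimum with the length and GC correction (-0.44), and it overlaps exons of PHF1. SOD1, the copper and zinc superoxide dismutase, was at -0.05 (95% interval -0.17 to 0.07), and COX17, a copper chaperone of cytochrome oxidase, at -4.89e-05 (interval -0.26 to 0.26).

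Genes that cells are known to raise on exposure to heavy metals and oxidants were tested as well. Of 17 tested, against 6.26% of all genes called higher, 7 rose, 0 fell by limma (2 lower at an unadjusted p below 0.05) and 10 did not pass (median 0.35). SLC7A11, the cystine importer, was at 11.4 and 12.2 TPM in NC and at 53.9 and 55.1 TPM in those labelled sh-ZNF217, a 4.61-fold rise (limma adjusted p = 0.000680). TXNRD1, thioredoxin reductase, rose from 204 and 209 TPM to 365 and 348 TPM (log2 fold change 0.79), GCLC, of glutathione synthesis, rose by 0.72 and OSGIN1 by 1.22. HMOX1, SRXN1 and NQO1 were the others that rose. GCLM, the partner subunit of GCLC, did not pass (0.21, limma adjusted p = 0.0799). Of the heat shock genes in the list, HSPA1A (0.35), HSPA1B (0.35) and HSPA8 (-0.02) did not pass, and HSPB1 was lower and short of the fold minimum (-0.43, limma adjusted p = 0.00713). The antisense SLC7A11-AS1 shares exon positions with SLC7A11, and GCLC and OSGIN1 also overlap other genes.

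Glucocorticoids are known to raise MT2A and MT1X, and of 13 tested glucocorticoid-responsive genes 4 rose, 0 fell by limma (1 lower at an unadjusted p below 0.05) and 9 did not pass (median 0.26). The shares over all tested genes were 6.26% called higher and 2.46% lower. SGK1, a kinase, rose from 23.7 and 26.1 TPM to 55.6 and 49.2 TPM (log2 fold change 1.04, limma adjusted p = 0.00488), and ZFP36, an RNA-binding protein, rose by 0.74. TSC22D3 (1.08) and DUSP1 (0.73) also rose, but the call of TSC22D3 was lost without sh-ZNF217 replicate 1 or 2 (adjusted p = 0.0566 and 0.0539), and that of DUSP1 without any of the 4 libraries (0.0844 to 0.175). Of the 13 genes, 11 had a positive log2 fold change and 2 a negative one. The median over all tested genes was 0.02, and their share of positive values was not computed. PER1 was at 9.24 and 9.90 TPM in NC and at 7.47 and 6.88 TPM in those labelled sh-ZNF217 (log2 fold change -0.37, limma adjusted p = 0.110). NFKBIA was at 77.8 and 78.9 TPM in NC and at 108 and 107 TPM in those labelled sh-ZNF217. It missed only the fold minimum (log2 fold change 0.45, limma adjusted p = 0.00907). FKBP5 was at 31.4 and 33.8 TPM in NC and at 31.4 and 31.2 TPM (log2 fold change -0.06). PER1, NFKBIA and FKBP5 were named after their values were seen. Of 10 tested factors known at metallothionein promoters 0 were called by limma (median 0.15), and 4 were higher and 0 lower at an unadjusted p below 0.05. NFE2L2, which encodes NRF2, was at 0.27 (limma adjusted p = 0.0563) and USF2 at -0.08 (adjusted p = 0.48).

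Zinc is also bound by S100 proteins, of which 4 genes were tested, with 2 rises, 0 falls by limma (0 lower at an unadjusted p below 0.05) and a median of 1.02. For this list and the next, the shares over all tested genes were 6.26% called higher and 2.46% lower. S100A9 rose from 246 and 217 TPM to 478 and 502 TPM (log2 fold change 1.08, SE 0.07, limma adjusted p = 0.00238). S100A8, its partner in the zinc-chelating dimer calprotectin, rose from 130 and 99.8 TPM to 278 and 304 TPM (1.34, SE 0.13, adjusted p = 0.00528). S100A12 (0.96, limma adjusted p = 0.191) and S100B (0.03, adjusted p = 0.955) did not pass. Of 8 tested neighbours of the metallothionein cluster on chromosome 16, 1 rose, 0 fell by limma (3 lower at an unadjusted p below 0.05) and 7 did not pass (median -0.002). The gene that rose was HERPUD1, of the endoplasmic reticulum stress response (0.81, limma adjusted p = 0.0275), and its call was lost without sh-ZNF217 replicate 1 (adjusted p = 0.1002) or 2 (0.121). NUDT21, a cleavage factor of mRNA, was at -0.21 (adjusted p = 0.0475, short of the fold minimum), and NUP93, a nucleoporin, at -0.32 (0.0674).

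**Figure D5:**
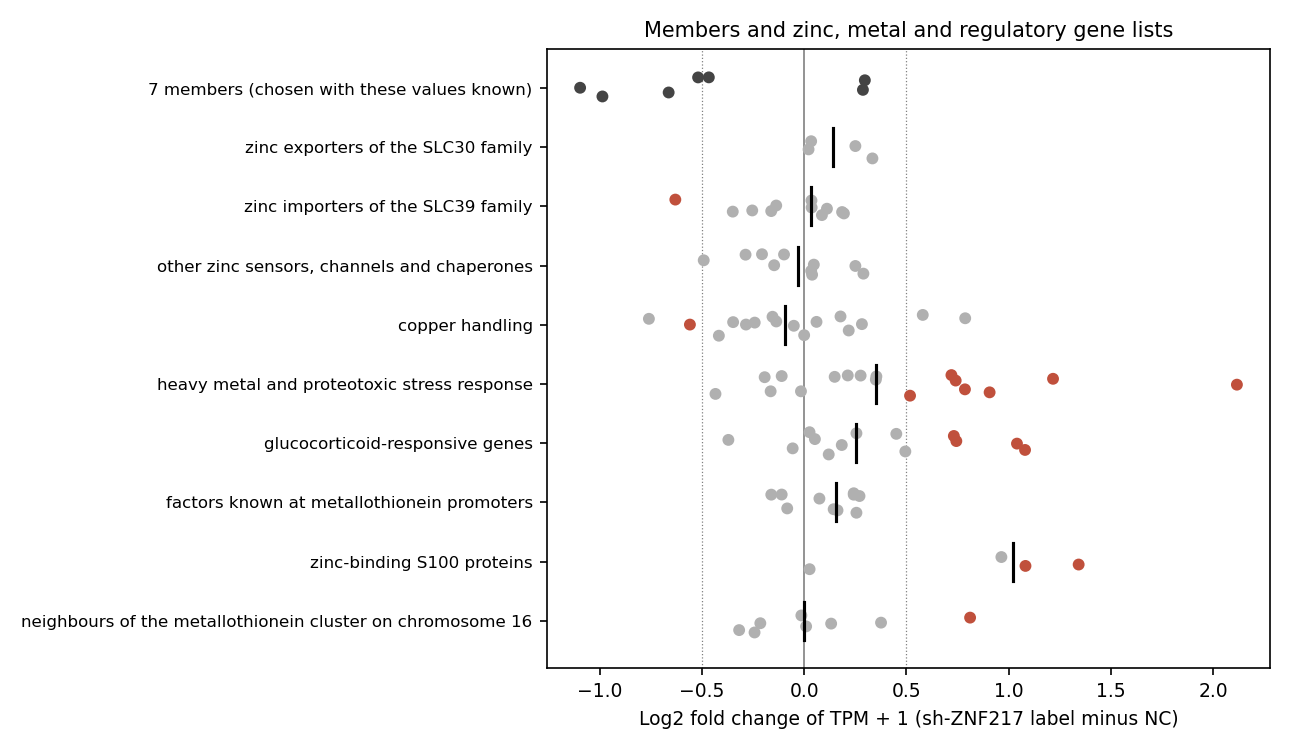
Log2 fold change on the TPM + 1 scale (labelled sh-ZNF217 against NC) of the 7 members (dark points) and of each tested gene of 9 lists, with red points for called genes, grey for the rest, a bar at each list's median and dotted lines at -0.5 and 0.5. Called genes lie to the right for heavy metal response (7 of 17), glucocorticoid response (4 of 13), S100 proteins (2 of 4) and neighbours of the cluster (1 of 8). They lie to the left for SLC39 importers (1 of 11) and copper handling (1 of 16). The shares over all tested genes were 6.26% called higher and 2.46% lower.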

How the data were processed

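Per the labels, RNA was extracted from U937 cells with Trizol and prepared with an Illumina TruSeq kit. The authors filtered the reads and aligned them with HISAT2 (2.0.5, hg38, per the submitters' processing notes). Not given in the sources used here are the quantifier, annotation release, strand use and depth, and the study's methods name FPM and DESeq2. The deposited table names no unit. Its values were taken as TPM deposited by the authors, since every column sums to nearly the same total (998932 to 999282), and no counting error could be given. Column names gave the group (NC or ZNF) and the replicate; their other parts are not explained, and 0 columns were left unused.

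Identifiers were named from GENCODE 44 (16143 of 17656). Genes reaching 1 TPM in 2 libraries or more (14582) were compared as log2(TPM + 1), a scale that understates the change of low genes, with limma 3.58.1 in R 4.3.3 (group alone, trended and robust empirical Bayes, Benjamini-Hochberg adjustment over all tested genes). The procedure was run on simulated data, drawn as independent normal values with a spread that varied smoothly with level. That cannot tell how well it does on these libraries. Figures were drawn with matplotlib 3.10.9. Promoters of 4 members matched the RefSeq table. Expression of 127 genes in 10 lists was read from the same fit. Of these, 91 were tested, with 14 rises and 2 falls, against 6.26% and 2.46% of all tested genes. Members and lists were chosen with earlier results of these data known. Named genes were the members, ZNF217, up to 4 called genes per list by p (and up to 2 of the most abundant where fewer than 2 were called), and the nearest profiles. Genes named beyond this rule were named after their values were seen. Alternatives covered scaling, filters, pseudocount, gene type, moderation, length and GC, a replicate block and leaving out each library, the lone library then being assumed to vary like the others.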

Additional observations from a re-analysis of the deposited data

How the results depend on the processing

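Depth is unknown, and with 2 libraries a group the spread of a gene rests on few values. The changed genes numbered 1272 (913 higher, 359 lower), and 430 to 1029 when 1 library was left out (294 to 712 higher, 129 to 317 lower). Without trend and robust moderation there were 723 (560 higher, 163 lower). Lower pathway genes numbered 2, and 1 with the length and GC correction, with the replicate block or without trend and robust moderation. The cause of these shifts was not tested. Same-numbered libraries did not deviate together (r = -0.0053 over 14582 genes, which are not independent). With 1 replicate difference per group, this cannot tell whether same-numbered libraries were prepared together. The replicate block gave 1049 changed genes. The log2 difference of the summed metallothionein level was -0.77, and -0.92 to -0.63 over left-out libraries and -0.81 to -0.72 otherwise. Of genes near 0 that did not pass, signs turned for SLC30A5 (-0.011 with median-of-ratios scaling, -0.078 with the length and GC correction, -0.0095 to 0.052 over left-out libraries), SLC30A9 (-0.105 with that correction, -0.015 to 0.084 over left-out libraries), SOD1 (0.029 with it) and COX17 (0.040 with it, 0.036 without mitochondrially encoded genes, -0.132 to 0.132 over left-out libraries). Beside the losses over left-out libraries, the call of DUSP1 was lost with median-of-ratios scaling, with no filter on low values, with the replicate block (adjusted p = 0.0773) and without trend and robust moderation, and those of SLC39A4 (block, adjusted p = 0.0589, and no trend) and HERPUD1 (no trend) were lost too. MT1G was not called under the block either.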
